A study of Mus musculus with 6 samples.

Results

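The genes described here are 35 mouse genes of fatty acid activation and beta-oxidation, chosen by symbol from a fixed list and grouped by step into uptake and activation (6 genes), the carnitine shuttle (5), the mitochondrial spiral (15), the peroxisomal arm (5) and regulators (4). All 35 were found among the 54532 genes of the deposited tables. The 6 libraries were made from messenger RNA of immortalised bone marrow-derived macrophages. In 3 of them the cells were wild-type (WT), and in the other 3 they carried the label 4-1BBL KO, for loss of the ligand whose gene is Tnfsf9. Both groups carried the v-raf and v-myc retroviruses used for immortalisation and both were kept for 24 hours with 10 ng/ml IL-4, the cytokine of alternative macrophage activation. IL-4-free cells were not analysed here, which makes each value a level under IL-4 rather than a response. By its title the study asks about 4-1BBL and the metabolic state of macrophages.

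Long-chain fatty acids are carried across the plasma membrane, activated to acyl-CoA by acyl-CoA synthetases, passed into mitochondria as carnitine esters and shortened by repeated rounds of dehydrogenation, hydration, a second dehydrogenation and thiolysis. Electrons from the first dehydrogenation enter the respiratory chain through electron transfer flavoprotein, and peroxisomes run a related pathway for very long-chain and branched fatty acids. In macrophages the pathway is best known for its association with the oxidative metabolism of IL-4-activated cells, and PPAR nuclear receptors with their PGC-1 coactivators are its classical transcriptional regulators.

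The WT and KO-labelled libraries differed across much of the transcriptome, which sets the scale for the pathway. Of 10843 genes tested, 60.8% passed the threshold of 0.05 on p-values from limma after Benjamini-Hochberg adjustment. Testing required a mean of 1 FPKM or more (fragments per kilobase of exon, scaled to library depth). WT libraries held 20.7 to 22.3 M (mega) fragments and KO-labelled libraries 19.1 to 26.4 M, as recovered from the values. Tnfsf9 itself was at 14.6, 10.4 and 12.05 FPKM in the WT group and at 10.7, 10.7 and 11.4 FPKM in KO-labelled libraries (adjusted p = 0.273 in limma, by Benjamini-Hochberg), and what the knockout removes from the gene is not stated. The Y-linked Ddx3y was at 10.8 ± 1.13 FPKM in KO-labelled libraries and at 0.00309 ± 0.00535 FPKM in WT libraries (SD over 3 libraries). Genotype and cell line of origin therefore cannot be told apart in this design, and the labels do not say whether a line is 1 clone or whether replicates were separate cultures, so the p-values measure the spread between libraries, which may be technical. All 12 macrophage markers on the list used had a mean of at least 1 FPKM, with a summed level of 2670 to 2725 FPKM in the WT group and 1823 to 1888 FPKM in KO-labelled libraries. Markers of fibroblasts and of hepatocytes, muscle and brown fat summed to at most 0.175 FPKM in any library, while the T cell list summed to 1.65 to 2.01 FPKM in the WT group and 0.597 to 0.942 FPKM in KO-labelled libraries, of which Lck alone made up 1.79 ± 0.194 and 0.771 ± 0.176 FPKM. The B cell list summed to 0.0628 to 0.615 and 1.43 to 1.80 FPKM and the neutrophil list to 0.0675 to 0.402 and 0.710 to 1.26 FPKM, with Cd3e, Cd3g, Trac, Ms4a1, Ly6g and S100a9 at 0 in all 6 libraries.

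Fatty acid oxidation genes changed in both directions and mostly by small amounts. Of 32 members tested, 12 rose and 9 fell in KO-labelled cells and 11 did not pass, against 30.6% of all tested genes higher and 30.2% lower. The 21 called members are 65.6% of those tested, a share close to the 60.8% over all tested genes. The median change of the 32 tested members was 0.02 on the log2 scale, beside 0.01 over the 10843 genes, and the median absolute log2 fold change was 0.24, beside 0.32. With a further limit of 2-fold, applied to FPKM + 1, Decr1 alone passed, against 13.5% of the 10843 genes. Without the added 1, the WT mean was 2.65 times the KO-labelled mean for Ppard and 2.02 times for Ppargc1b. That plain ratio was not counted over all genes. With 1.5-fold as the limit 6 members passed, Acsl5, Acadm and Decr1 upward and Acaa1a, Ppard and Ppargc1b downward, against 26.3% of tested genes. The groups did not overlap for 24 of the 32, against 67.4% of all tested genes, with KO-labelled libraries above in 13 (34.1% of all) and below in 11 (33.4% of all). In bulk RNA, fewer cells of a kind and less RNA per cell cannot be told apart. The split between higher and lower calls depends on scaling. It was 13 higher and 6 lower after rescaling to TPM and 9 higher and 11 lower with quantile normalization. The summed level of all 35 genes was 630 ± 3.34 FPKM in the WT group and 646 ± 5.74 FPKM in KO-labelled libraries (SD over 3 libraries each).

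**Figure D1:**
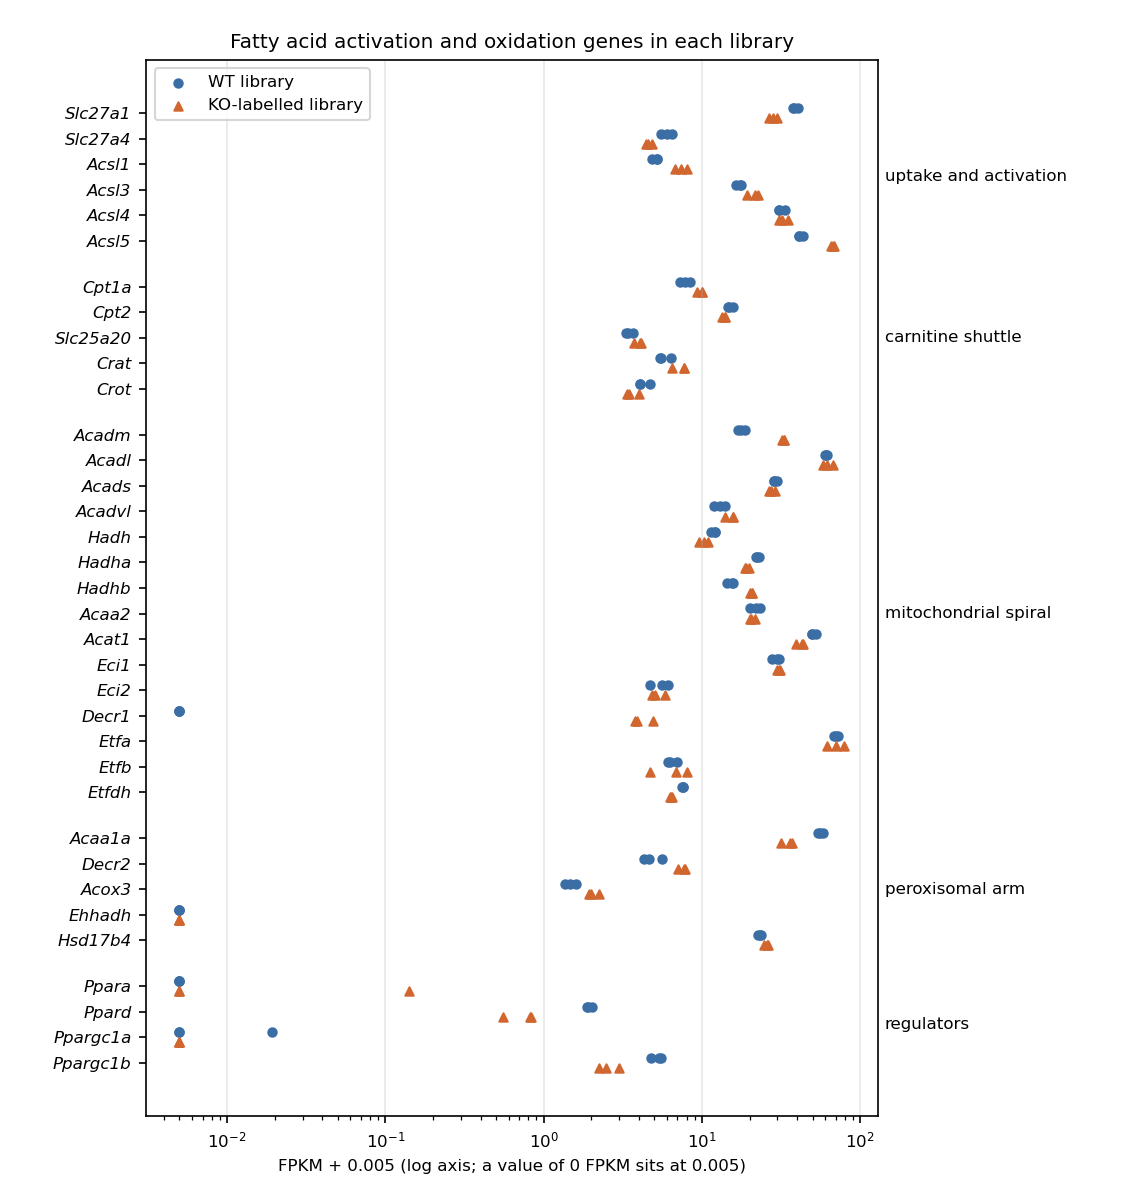
Level of each of the 35 genes in each library, as FPKM + 0.005 on a log axis, grouped by step. Circles are the 3 WT and triangles the 3 KO-labelled libraries. Most genes lie between 1 and 100 FPKM with groups close together, Decr1 is at 0 in WT, and Ehhadh, Ppara and Ppargc1a are at or near 0 in both groups.

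**Figure D2:**
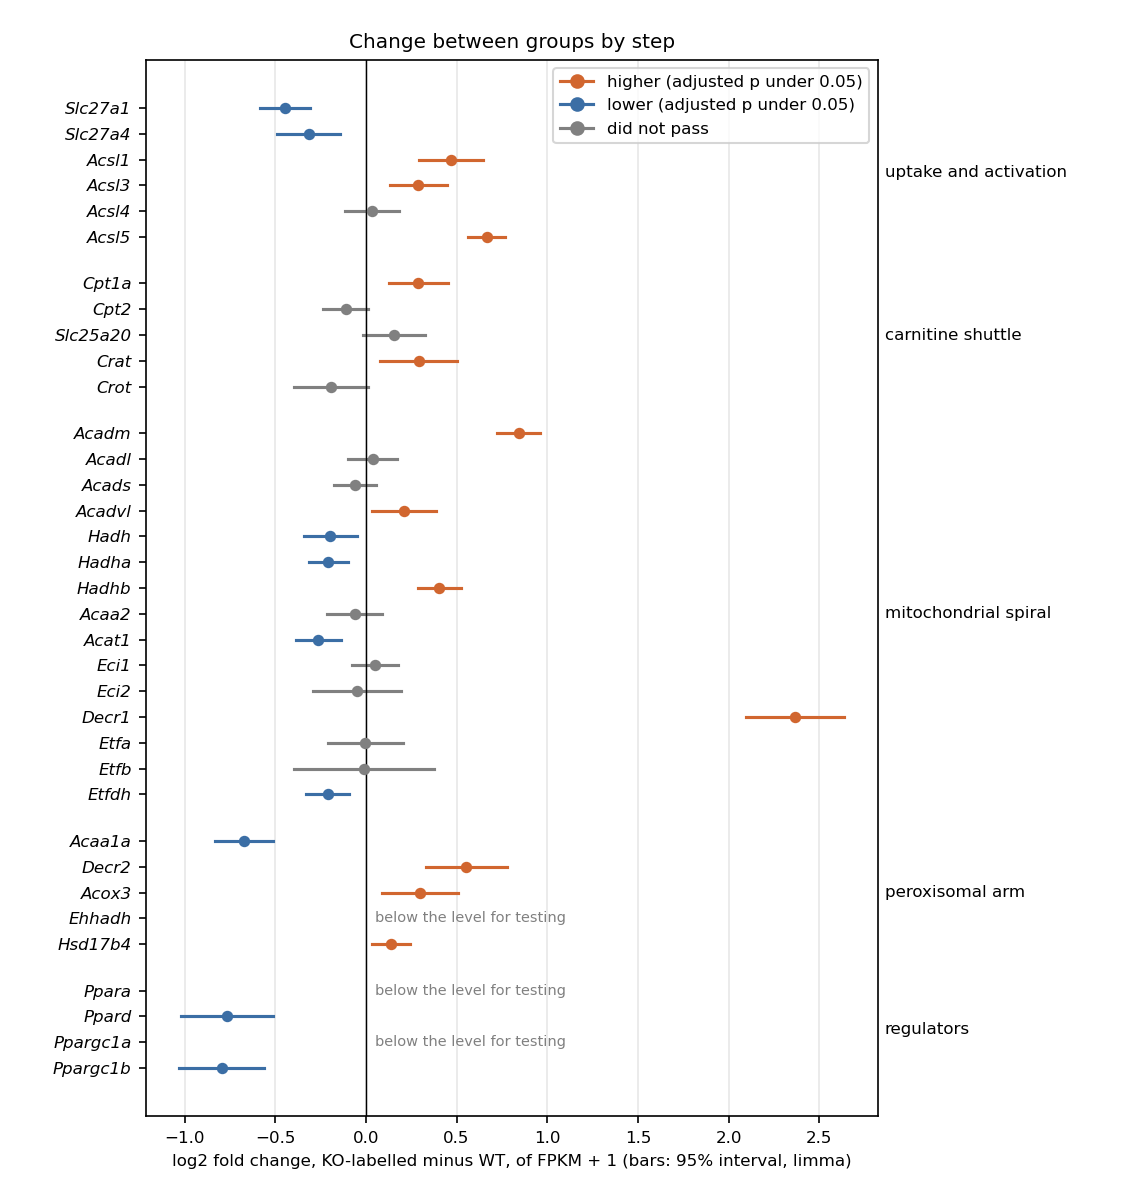
Log2 fold change of FPKM + 1, KO-labelled minus WT, for the 32 tested genes, with 95% intervals from limma, coloured by call. Decr1 stands at 2.37 and all other members lie between -0.80 and 0.84.

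Among the uptake and activation genes, the synthetases and the transport proteins moved in opposite directions. Of 6 genes, 3 acyl-CoA synthetases rose (Acsl1, Acsl3 and Acsl5), both transport protein genes fell (Slc27a1 and Slc27a4) and Acsl4 did not pass. Calls in both directions were common, with 30.6% of all tested genes higher and 30.2% lower. Acsl5, a synthetase of mitochondria and endoplasmic reticulum, was at 41.0, 43.6 and 41.2 FPKM in the WT group and at 68.5, 65.7 and 67.0 FPKM in KO-labelled libraries. Every KO-labelled library lay above every WT library, and the ratio of means was 1.60 (log2 fold change 0.67 ± 0.04 SE, adjusted p = 1.53e-05 in limma, by Benjamini-Hochberg). Acsl1, the synthetase most often tied to inflammatory and lipid-loaded macrophages, was lower in level, at 5.20, 4.81 and 5.20 FPKM in the WT group and 6.80, 7.34 and 8.10 FPKM in KO-labelled libraries (log2 fold change 0.47 ± 0.07, adjusted p = 0.00142). Acsl3, which works at lipid droplets and the endoplasmic reticulum, rose from 17.1 ± 0.532 to 21.2 ± 1.72 FPKM (adjusted p = 0.00808), and 5.60% of its exon length overlaps Utp14b on the same strand, a gene that also rose. Acsl4, which prefers arachidonic acid, was at 31.7 ± 1.68 and 32.5 ± 2.06 FPKM, with a 95% interval of the log2 difference from -0.11 to 0.18.

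The make-up of the synthetase pool shifted towards Acsl5. Per unit of exon length the 4 Acsl genes summed to 95.8 ± 2.38 FPKM in the WT group and 128 ± 3.77 FPKM in KO-labelled libraries (SD over 3 libraries each), with no overlap between groups. Acsl5 made up 43.3%, 44.2% and 43.6% of that sum in WT and 54.7%, 51.8% and 50.6% in KO-labelled libraries. The share of Acsl4 was correspondingly 33.1% ± 0.920 and 25.4% ± 0.880, and those of Acsl1 and Acsl3 overlapped between groups. In each library the order of levels was Acsl5, Acsl4, Acsl3 and Acsl1 from highest to lowest.

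The transport proteins, which bring fatty acids in and also have synthetase activity, were lower. Slc27a1 was at 40.5, 37.5 and 38.2 FPKM in the WT group and at 29.9, 28.0 and 26.6 FPKM in KO-labelled libraries. The groups did not overlap, and the WT mean was 1.38 times the KO-labelled mean (log2 fold change -0.45 ± 0.06 SE, adjusted p = 0.000495 in limma, by Benjamini-Hochberg). Slc27a4 was expressed well below Slc27a1, at 5.49, 6.49 and 5.97 FPKM in the WT group and 4.53, 4.82 and 4.44 FPKM in KO-labelled libraries (log2 fold change -0.32 ± 0.07, adjusted p = 0.00831).

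Genes of the carnitine shuttle changed little. Their median absolute log2 fold change was 0.19, beside 0.20 in the mitochondrial spiral and 0.32 over all tested genes. Of 5 genes, 2 rose (Cpt1a and Crat), none fell and 3 did not pass in the limma fit. In that fit 30.6% of tested genes rose and 30.2% fell. Cpt1a, the outer membrane palmitoyltransferase that is the controlled step of mitochondrial entry, was at 7.23, 8.39 and 7.83 FPKM in the WT group and at 9.98, 9.25 and 10.06 FPKM in KO-labelled libraries, each above all WT values (log2 fold change 0.29 ± 0.07 SE, adjusted p = 0.00878 in limma, by Benjamini-Hochberg). Crat, the acetyltransferase that exports short acyl groups as carnitine esters, was at 5.40, 6.33 and 5.54 FPKM in the WT group and 7.67, 7.68 and 6.43 FPKM in KO-labelled libraries. KO-labelled replicate 3 lay just above the highest WT library, and the adjusted p of 0.0260 for Crat rose to between 0.0784 and 0.0857 without WT replicate 1, WT replicate 3, KO replicate 1 or KO replicate 2, and to 0.0543 without a filter on low values.

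The inner membrane and peroxisomal partners of the shuttle did not pass. Cpt2, which reforms acyl-CoA in the matrix, was at 15.03 ± 0.675 FPKM in the WT group and 13.8 ± 0.365 FPKM in KO-labelled libraries (adjusted p = 0.102 in limma, by Benjamini-Hochberg), and Slc25a20, the carnitine-acylcarnitine translocase, at 3.45 ± 0.187 and 3.96 ± 0.228 FPKM (adjusted p = 0.101). Crot, the octanoyltransferase that sends peroxisomal products towards mitochondria, was at 4.27 ± 0.362 and 3.61 ± 0.337 FPKM (adjusted p = 0.0894). For all 3 the groups did not overlap, as for 67.4% of all tested genes. The calls move with scaling or 1 library: Cpt2 and Crot passed with quantile normalization (adjusted p of 0.0381 and 0.0486), Slc25a20 passed after rescaling to TPM (0.0290), and Crot passed without KO replicate 3 (0.0438).

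The mitochondrial spiral held the largest single difference and the largest group of genes without a call. Of 15 genes, 4 rose (Acadm, Acadvl, Hadhb and Decr1), 4 fell (Hadh, Hadha, Acat1 and Etfdh) and 7 did not pass. Among all tested genes 30.6% rose and 30.2% fell. The summed level of the 15 genes was 361 ± 1.46 FPKM in the WT group and 374 ± 5.87 FPKM in KO-labelled libraries (SD over 3 libraries each).

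The 4 acyl-CoA dehydrogenases, which open each round and differ in the chain length they take, did not move together. Acadm, the medium-chain enzyme, was at 17.0, 17.6 and 18.8 FPKM in the WT group and at 32.9, 33.0 and 32.1 FPKM in KO-labelled libraries. The groups were far apart relative to their spread, with a ratio of means of 1.84 (log2 fold change 0.84 ± 0.05 SE, adjusted p = 9.79e-06 in limma, by Benjamini-Hochberg). Acadl, the long-chain enzyme and the most abundant of the 4, was at 59.7, 61.9 and 60.5 FPKM in the WT group and 58.5, 61.6 and 67.0 FPKM in KO-labelled libraries, with a 95% interval of the log2 difference from -0.10 to 0.17. Acads, the short-chain enzyme, was at 28.9 ± 0.642 and 27.6 ± 1.31 FPKM, with an interval from -0.18 to 0.06. In these 2 genes the groups overlapped.

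Acadvl, the very long-chain enzyme of the inner membrane, was at 12.9, 12.0 and 14.03 FPKM in the WT group and at 15.7, 15.8 and 14.05 FPKM in KO-labelled libraries. WT replicate 3 and KO replicate 3 were nearly equal. Its adjusted p was 0.0422 in limma (Benjamini-Hochberg) and between 0.0996 and 0.128 without WT replicate 1, WT replicate 2, KO replicate 1 or KO replicate 2, 0.0722 without a filter and 0.0905 with quantile normalization. A limma fit with the replicate number as a block gave an adjusted p of 0.0911. Of the exon length of Acadvl, 42.9% overlaps the antisense gene Dvl2, which was at 7.63 ± 0.362 and 7.53 ± 0.473 FPKM, and whether counting used strand is not known. As a share of the summed level of the 4 dehydrogenase genes, Acadm was 14.4%, 14.6% and 15.3% in WT and 24.6%, 24.0% and 22.5% in KO-labelled libraries, while the share of Acadl was 50.5% ± 1.20 and 45.2% ± 1.72 and that of Acads 24.0% ± 0.211 and 20.04% ± 0.358. Within a library the ratio of Acadm to Acadl was 0.293 ± 0.0151 in WT and 0.525 ± 0.0428 in KO-labelled libraries.

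**Figure D3:**
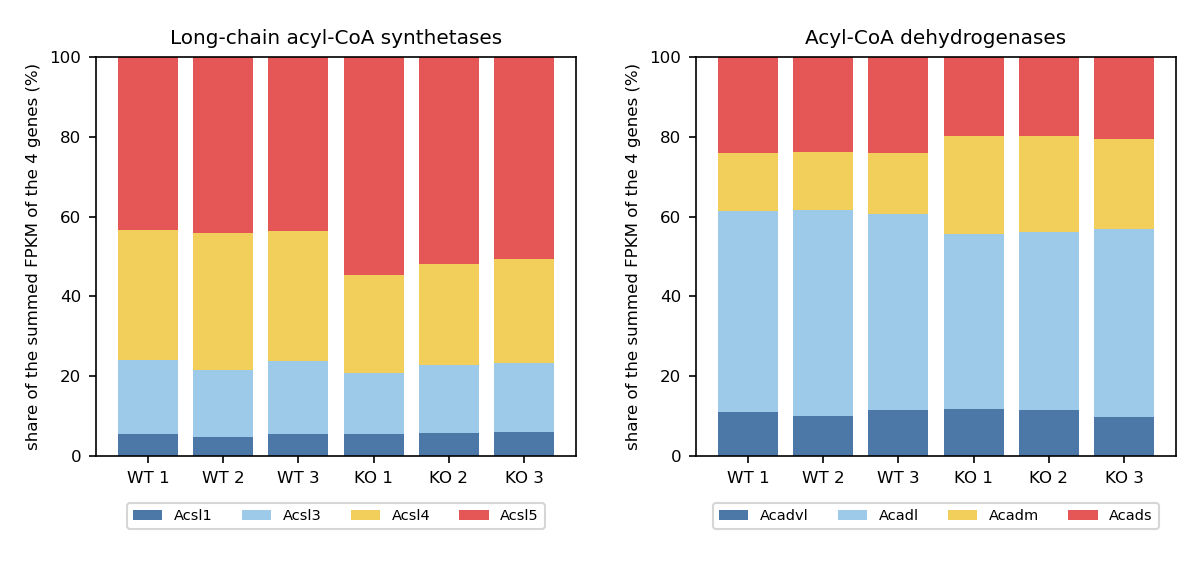
Share of each gene in the summed FPKM of 4 long-chain acyl-CoA synthetase genes and of 4 acyl-CoA dehydrogenase genes, in percent, for each of the 6 libraries. The Acsl5 share is 43.3% to 44.2% in WT and 50.6% to 54.7% in KO-labelled libraries, and the Acadm share 14.4% to 15.3% and 22.5% to 24.6%.

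The subunit genes of the mitochondrial trifunctional protein moved apart. Hadha encodes the alpha subunit, with the hydratase and long-chain hydroxyacyl-CoA dehydrogenase, and Hadhb the beta subunit, with the thiolase, of 1 complex. Hadha was at 21.9, 22.2 and 22.9 FPKM in the WT group and at 19.9, 18.9 and 18.8 FPKM in KO-labelled libraries (log2 fold change -0.21 ± 0.05 SE, adjusted p = 0.00659 in limma, by Benjamini-Hochberg). Hadhb was at 14.5, 15.7 and 15.6 FPKM in the WT group and at 20.7, 20.2 and 20.6 FPKM in KO-labelled libraries (log2 fold change 0.40 ± 0.05, adjusted p = 0.000373). The groups did not overlap for either gene, in opposite directions. Within a library the ratio of Hadhb to Hadha was 0.660, 0.706 and 0.680 in WT and 1.04, 1.07 and 1.09 in KO-labelled libraries. After rescaling to TPM the fall of Hadha was -0.12 with an adjusted p of 0.0531, while no rescaling of a whole library alters the ratio. Hadhb has 2 near-identical processed pseudogenes, and 1 of them, Gm13910, was at 20.1 ± 1.96 FPKM in the WT group and 28.6 ± 4.12 FPKM in KO-labelled libraries (adjusted p = 0.00808), so how fragments were divided between the gene and its copy is uncertain.

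**Figure D4:**
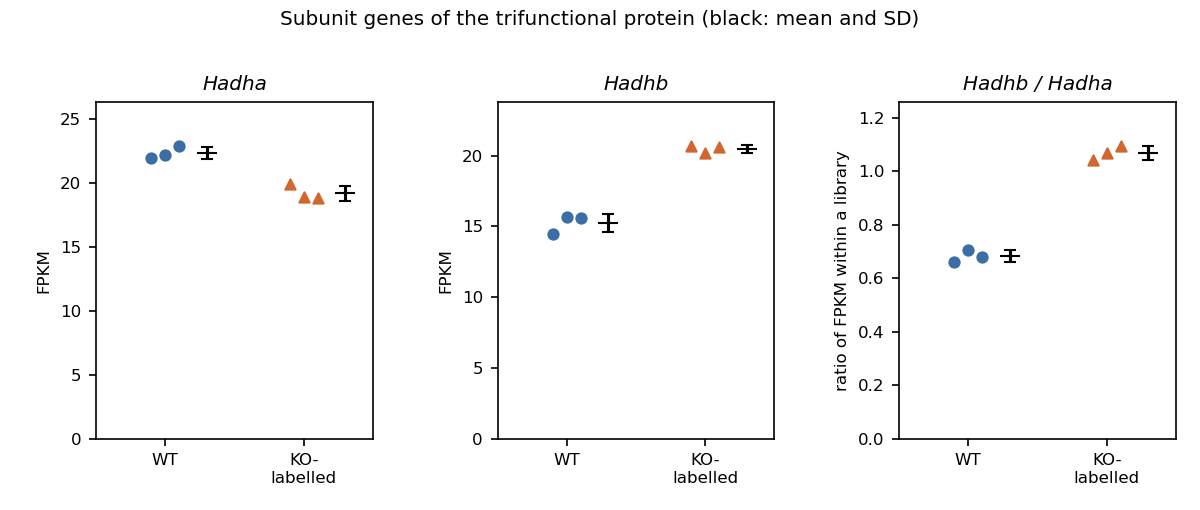
FPKM of Hadha and Hadhb, and the ratio of Hadhb to Hadha within each library, with the mean and SD of each group in black. Hadha is lower and Hadhb higher in all 3 KO-labelled libraries, and the ratio moves from 0.660 to 0.706 in WT to 1.04 to 1.09.

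Hadha and Hadhb lie head to head on chromosome 5, Hadha on the minus strand at 30118304 to 30155162 and Hadhb on the plus strand at 30155248 to 30184593 (mm10). Their annotated starts are separated by 85 bases in GENCODE M21 and by 272 bases in RefSeq. The 85 bases between the GENCODE starts, chr5:30155163-30155247 on the plus strand, are shown because they lie between the starts of a pair of genes that moved in opposite directions. The 250 bases before the RefSeq start of Acadm, chr3:153944644-153944893 on the minus strand, are shown beside it because Acadm had the largest rise among members expressed in both groups. Both are RefSeq sequence of GRCm38.p6, written 5′ to 3′ on the strand of the gene named, with matches to the GC box GGGCGG and to the nuclear receptor half-site AGGTCA, on either strand, in capitals.
Hadhb: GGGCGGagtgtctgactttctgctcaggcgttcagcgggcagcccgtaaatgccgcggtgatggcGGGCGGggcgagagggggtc
Acadm: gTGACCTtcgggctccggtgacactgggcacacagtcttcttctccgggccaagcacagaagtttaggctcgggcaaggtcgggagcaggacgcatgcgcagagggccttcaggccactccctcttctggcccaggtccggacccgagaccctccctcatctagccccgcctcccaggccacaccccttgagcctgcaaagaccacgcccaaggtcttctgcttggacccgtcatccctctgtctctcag

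The stretch beside Hadhb holds 2 GC boxes and no half-site, and the Acadm window 1 half-site and no GC box. A RefSeq window of 250 bases was found for 29 of the 35 members. Among these 29, 21 hold a GC box (72.4%, against 44.5% of 16495 promoters of the same length) and 3 hold a half-site (Acadm, Acadvl and Cpt1a, 10.3% against 12.4%). The members' windows held a median of 13 CpG (C followed by G) and 60% GC, against 10 and 56% over all promoters. Those promoters were not limited to expressed genes. The windows of Hadha and Hadhb share 228 bases and were counted separately. None of the 29 holds a direct repeat of 2 half-sites with 1 base between them, the E-box CACGTG or the STAT6-type site (TTC and GAA with 4 bases between them), which 0.0546%, 6.80% and 5.30% of all promoters hold. These matches describe letters in a window of 250 bases and not bound sites.

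The remaining core enzymes of the spiral fell or did not pass. Acat1, the acetyl-CoA acetyltransferase of the matrix, was at 52.2, 49.5 and 49.5 FPKM in the WT group and at 39.3, 43.3 and 43.1 FPKM in KO-labelled libraries, all below WT (log2 fold change -0.26 ± 0.05 SE, adjusted p = 0.00442 in limma, by Benjamini-Hochberg), and the change was -0.17 after rescaling to TPM. Hadh, the hydroxyacyl-CoA dehydrogenase for medium and short chains, was at 12.07, 12.06 and 11.3 FPKM in the WT group and at 9.52, 10.2 and 10.8 FPKM in KO-labelled libraries (adjusted p = 0.0286). The call of Hadh was lost with fewer libraries at a like size of change. Without WT replicate 1, WT replicate 2, KO replicate 1 or KO replicate 2 its adjusted p in limma was between 0.0693 and 0.0860, with log2 fold changes of -0.18, -0.18, -0.15 and -0.20 beside -0.20 with all 6. After rescaling to TPM the change was -0.12 and the adjusted p 0.212. The call was also lost with all 6 libraries when the replicate number was fitted as a block (adjusted p = 0.0694 in limma). Acaa2, the thiolase that closes the spiral for medium chains, was at 21.8 ± 1.59 and 20.8 ± 0.835 FPKM, which did not pass (interval of the log2 difference from -0.22 to 0.09).

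Decr1, the mitochondrial dienoyl-CoA reductase needed to oxidise polyunsaturated fatty acids, was present in KO-labelled libraries alone. It was at 0 FPKM in all 3 WT libraries and at 3.76, 4.90 and 3.89 FPKM in KO-labelled libraries, from 1048 recovered fragments over the group. Against the 3 fragments per library taken as the floor of detection, the level was at least 116-fold higher (adjusted p = 3.47e-06 in limma, by Benjamini-Hochberg), where the floor covers counting error only. Decr1 passed the filter on low values through the KO-labelled group alone, and its WT values have no spread. On the log2(FPKM + 1) scale the difference was 2.37 ± 0.11 (SE), and 5.41 with a pseudocount of 0.1. Decr1 lies on chromosome 4 at 15917240 to 15945507 (mm10), where the next protein-coding gene on one side, Calb1, was at 0.00995 ± 0.0172 FPKM in the WT group and 0 in KO-labelled libraries, and that on the other side, Nbn, 12418 bases away, was at 14.5 ± 0.521 and 12.8 ± 1.54 FPKM. Nbn, a DNA repair gene, was thus read in all 6 libraries. The auxiliary enzymes that shift double bonds did not pass: Eci1 was at 29.5 ± 1.64 and 30.5 ± 0.708 FPKM and Eci2 at 5.45 ± 0.700 and 5.23 ± 0.537 FPKM.

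The electron transfer chain of the spiral showed a small fall at its last member. Etfdh, the oxidoreductase that hands electrons to ubiquinone, was at 7.61, 7.46 and 7.57 FPKM in the WT group and at 6.47, 6.30 and 6.36 FPKM in KO-labelled libraries. These are the tightest groups among the members, without overlap (log2 fold change -0.21 ± 0.05 SE, adjusted p = 0.00899 in limma, by Benjamini-Hochberg, or 0.0712 after rescaling to TPM). An antisense gene, 4930579G24Rik, overlaps 3.70% of its exon length and also fell, from 11.6 ± 2.03 to 6.39 ± 0.984 FPKM. Etfa and Etfb, the flavoprotein subunits, were at 70.3 ± 1.95 and 70.5 ± 8.72 FPKM and at 6.42 ± 0.424 and 6.49 ± 1.69 FPKM. In the KO-labelled libraries both were highest in replicate 1 (79.3 and 8.01 FPKM) and lowest in replicate 3 (61.8 and 4.67 FPKM). The spread of Etfb in that group, 26.0% of its mean, leaves a 95% interval of the log2 difference from -0.40 to 0.37. Per unit of exon length Etfa was 11.0 ± 0.687 times Etfb in WT and 11.2 ± 1.81 times in KO-labelled libraries.

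In the peroxisomal arm the thiolase gene fell while the other expressed members rose. Of 5 genes, 3 rose (Decr2, Acox3 and Hsd17b4), Acaa1a fell and Ehhadh was not expressed. By comparison, 30.6% of all tested genes rose and 30.2% fell. Acaa1a, the peroxisomal thiolase, was at 55.5, 54.3 and 57.8 FPKM in the WT group and at 35.7, 37.1 and 31.5 FPKM in KO-labelled libraries, a WT mean 1.61 times the KO-labelled mean (log2 fold change -0.67 ± 0.07 SE, adjusted p = 0.000134 in limma, by Benjamini-Hochberg). Its near-identical paralogue Acaa1b was at 1.65 ± 0.560 and 0.0451 ± 0.0781 FPKM, also lower in KO-labelled libraries though not tested, and the antisense Myd88, which overlaps 6.57% of the exon length of Acaa1a, rose from 29.1 ± 2.63 to 39.3 ± 1.59 FPKM. The summed level of the 5 genes was 85.3 ± 2.84 FPKM in the WT group and 69.9 ± 2.22 FPKM in KO-labelled libraries (SD over 3 libraries each), which follows Acaa1a, the most abundant of them.

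Decr2, the peroxisomal dienoyl-CoA reductase, was at 4.28, 4.61 and 5.59 FPKM in the WT group and at 7.78, 7.06 and 7.72 FPKM in KO-labelled libraries (ratio of means 1.56, log2 fold change 0.55 ± 0.09 SE, adjusted p = 0.00196 in limma, by Benjamini-Hochberg). Both dienoyl-CoA reductase genes, Decr1 and Decr2, were higher in every KO-labelled library than in any WT library, as were 34.1% of all tested genes. Acox3, an oxidase for branched chains, was weakly expressed at 1.48 ± 0.115 and 2.05 ± 0.150 FPKM (adjusted p = 0.0232). Hsd17b4, the bifunctional enzyme of the middle reactions, was at 23.5, 22.5 and 23.4 FPKM in the WT group and 24.8, 25.7 and 26.1 FPKM in KO-labelled libraries (log2 fold change 0.14 ± 0.04, adjusted p = 0.0326). Neither of these calls holds throughout: with quantile normalization the adjusted p was 0.0536 for Acox3 and 0.0752 for Hsd17b4, without WT replicate 1, WT replicate 2 or KO replicate 3 it was 0.0551 to 0.0656 for Acox3, and without any 1 of WT replicates 1 to 3 or KO replicates 2 and 3 it was 0.0600 to 0.102 for Hsd17b4. Fitted in limma with the replicate number as a block, the adjusted p was 0.0502 for Acox3 and 0.0830 for Hsd17b4. Ehhadh, the other bifunctional enzyme, had 0 fragments in all 6 libraries, below a floor of 0.0469 FPKM for 3 fragments in WT.

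**Figure D5:**
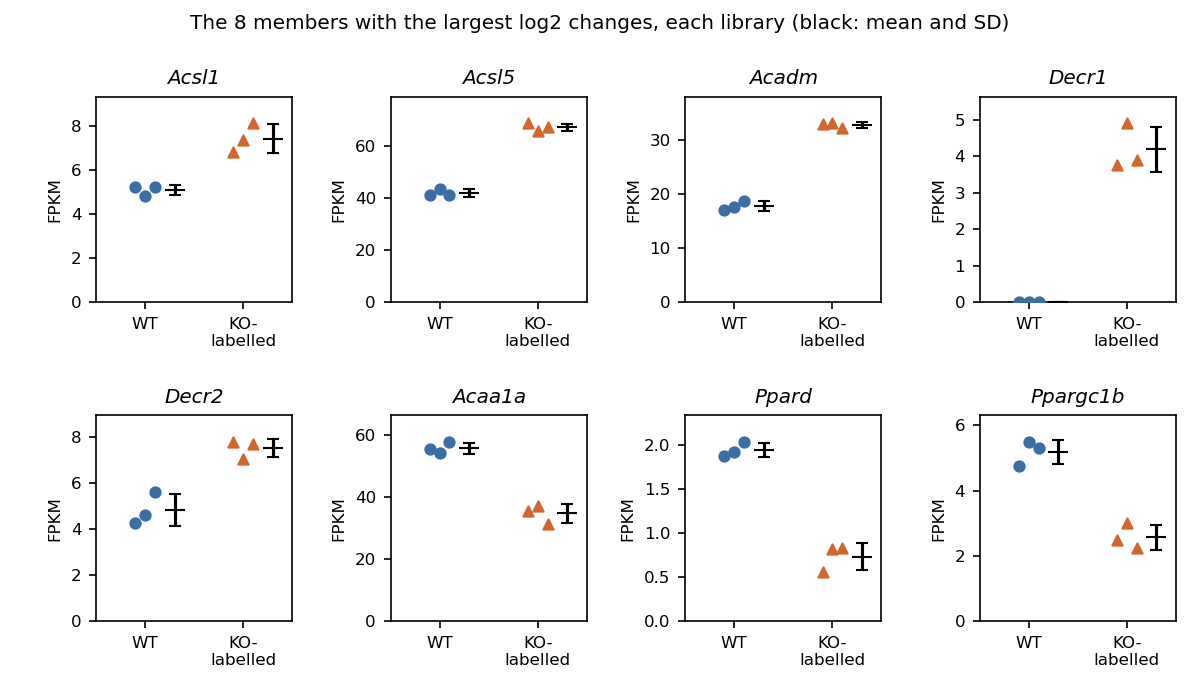
FPKM in each library of the 8 members with the largest log2 changes, with the mean and SD of each group in black and each axis starting at 0. In all 8 the groups are separate, as in 67.4% of all tested genes. The 5 genes that rose are Acsl1, Acsl5, Acadm, Decr1 and Decr2.

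Of the 4 regulator genes among the members, the 2 that were tested, Ppard and Ppargc1b, were lower in KO-labelled cells. The other 2 were at or near 0. This does not hold for PPAR receptor genes in general. Pparg and Rxra, which belong to a further list described below, were both higher in KO-labelled libraries. Ppard, the PPAR subtype of broad expression, was at 1.87, 1.91 and 2.03 FPKM in the WT group and at 0.550, 0.811 and 0.828 FPKM in KO-labelled libraries. The WT mean was 2.65 times the KO-labelled mean, from 937 and 348 fragments (log2 fold change -0.77 ± 0.11 SE, adjusted p = 0.000734 in limma, by Benjamini-Hochberg, or -1.31 with a pseudocount of 0.1). Ppard passed the filter on low values through the WT group alone. Ppargc1b, the coactivator PGC-1 beta, was at 4.76, 5.49 and 5.31 FPKM in the WT group and at 2.49, 2.99 and 2.24 FPKM in KO-labelled libraries, 2.02 times lower by ratio of means (log2 fold change -0.80 ± 0.10, adjusted p = 0.000398). Ppara, the PPAR subtype that drives fatty acid oxidation in liver, had 0 fragments in 5 libraries and 10 in KO replicate 3 (0.136 FPKM). Ppargc1a, the coactivator PGC-1 alpha, had 2 fragments in WT replicate 1 and 0 in the other 5 libraries.

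Beside these members, other genes of the pathway were counted from 7 lists of 139 genes, of which 105 were tested. In all, 36 rose and 27 fell, and the median change was 0.02 (log2). Over all tested genes 30.6% rose and 30.2% fell. Of 13 further genes of fatty acid uptake, activation and binding 9 rose and 4 fell. Their median change was 0.67 and their median absolute change 1.16 (log2), the latter the highest of the 7 lists. The scavenger receptor gene Cd36 was at 7.22, 7.13 and 7.36 FPKM in the WT group and 50.7, 56.5 and 58.4 FPKM in KO-labelled libraries, and the fatty acid-binding protein gene Fabp4 at 3.16 ± 0.179 and 26.2 ± 5.69 FPKM. Of 8 genes that release fatty acids from stored lipid or coat droplets, 3 rose, 3 fell and 2 did not pass, and among them Pnpla2, the triglyceride lipase, rose from 13.6 ± 1.85 to 34.9 ± 0.871 FPKM and Plin2, a droplet coat protein, from 26.5 ± 1.07 to 58.02 ± 2.07 FPKM. These 4 genes had Benjamini-Hochberg adjusted p-values of 2.07e-05 or less in limma.

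Genes of carnitine supply and of control by malonyl-CoA were divided, with 4 of 11 higher and 4 lower. The shares over all tested genes were 30.6% higher and 30.2% lower. Tmlhe, the first enzyme of carnitine synthesis, rose from 9.47 ± 1.44 to 15.1 ± 0.757 FPKM, and Acaca, which makes the malonyl-CoA that inhibits Cpt1a, fell from 8.56 ± 0.324 to 6.40 ± 0.159 FPKM. Of 25 further mitochondrial oxidation genes 7 rose, 5 fell and 13 did not pass. Hsd17b10, a dehydrogenase of branched short chains, fell from 69.8 ± 6.16 to 37.1 ± 3.78 FPKM, and Mcee, an epimerase of propionate breakdown, rose from 7.34 ± 1.17 to 14.7 ± 3.38 FPKM. These 4 genes had Benjamini-Hochberg adjusted p-values of 0.00347 or less in limma.

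Peroxisomal genes outside the members also went both ways. Of 14 further peroxisomal enzymes and transporters 5 rose and 4 fell, where 30.6% of all tested genes rose and 30.2% fell. Abcd2, a transporter of very long-chain acyl-CoA, was at 0.716, 0.600 and 0.589 FPKM in the WT group and at 19.6, 17.3 and 20.06 FPKM in KO-labelled libraries (29.9-fold), and Phyh, which begins the oxidation of phytanic acid, fell from 23.7 ± 0.855 to 12.3 ± 0.919 FPKM. Of 15 peroxisome biogenesis genes 2 rose, 5 fell and 8 did not pass, and Pex19, an import receptor for membrane proteins, fell from 24.7 ± 0.110 to 19.8 ± 1.69 FPKM. Phyh and Pex19 had Benjamini-Hochberg adjusted p-values of 0.00520 or less in limma. Abcd2 passed the filter on low values through the KO-labelled group alone.

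Among 19 tested partners, corepressors and targets of PPARs, 6 rose, 2 fell and 11 did not pass. The background was 30.6% of tested genes higher and 30.2% lower. Pparg, the PPAR subtype of macrophages and fat, had 0 fragments in WT and was at 13.4, 12.2 and 12.2 FPKM in KO-labelled libraries (at least 266-fold higher against 3 fragments per library) and passed the filter on low values through that group alone. Rxra, the receptor that PPARs pair with, rose from 3.65 ± 0.311 to 12.9 ± 1.16 FPKM (Benjamini-Hochberg adjusted p = 5.76e-06 in limma).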

How the data were processed

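The authors deposited FPKM per Ensembl gene, 1 column per library. The tools were HISAT2 2.0.5 and featureCounts 1.5.0-p3 on mm10, per the submitters' processing notes. The annotation release, the strand setting and how multi-mapping reads were counted are not given in the sources used. Symbols, positions and exon lengths came from GENCODE M21 on the same build (54495 of 54532 identifiers matched). FPKM times exon length stepped in whole fragments for 97.8% to 98.0% of values up to 200 fragments, within 0.1 of a fragment, which gave the depths, floors and fragment numbers. For Cpt1a, Acaa2, Eci1 and Decr2 not every value was whole, so their fragment numbers are approximate.

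The comparison used log2(FPKM + 1) and limma 3.58.1 (R 4.3.3) with its trend option, adjusted by Benjamini-Hochberg over the 10843 genes whose mean reached 1 FPKM. That scale understates changes of weakly expressed genes. Of the 35 members, 32 passed this filter, 2 of them (Decr1 and Ppard) through 1 group alone, and Ehhadh, Ppara and Ppargc1a did not. The step was tested on simulated data. Near-identical copies were sought with BLAST+ 2.17.0+ (at least 95% identity over 80% of the shorter transcript and 150 bases). Pairs of libraries shared 0 values above 0, and all 6 were used. All members are named, and from each further list the 2 genes with the largest change among called genes averaging 5 FPKM or more. A gene that this rule takes is not reported here. Members and lists were chosen with earlier results of these data known. Alternatives were another pseudocount, 2 other filters, TPM, quantile normalization, a replicate block, voom on recovered fragments, each library left out, and members without copies or overlaps.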

Additional observations from a re-analysis of the deposited data

How the results depend on the processing

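Across 410 values of single members under 13 alternatives, 359 kept direction and side of the threshold, 32 lost the call, 4 gained it and 15 changed sign. The call held in every alternative that tested them for 14 members, 8 higher (Acsl1, Acsl3, Acsl5, Cpt1a, Acadm, Hadhb, Decr1 and Decr2) and 6 lower (Slc27a1, Slc27a4, Acat1, Acaa1a, Ppard and Ppargc1b). Decr1, Ppard and Ppargc1b were not tested under the stricter filter of 5 FPKM. Decr1 and Ppard had passed the main filter only through the group where each is high. Members that changed sign had not passed, and the cause was not tested. After rescaling to TPM the log2 fold change was 0.0747 for Etfb, 0.0348 for Eci2, 0.0308 for Acads, 0.0912 for Etfa and 0.0291 for Acaa2. With quantile normalization it was 0.102 for Etfa, and with voom 0.0508 for Etfb and 0.0390 for Etfa. Leaving out 1 library at a time gave -0.157 to 0.177 for Etfb, -0.134 to 0.0228 for Eci2, -0.0895 to 0.0872 for Etfa, -0.0161 to 0.0802 for Acadl and -0.0105 to 0.0781 for Acsl4. The median of the members was 0.111 after rescaling to TPM, where that of all tested genes was 0.0959. Over the 21 members without a copy or exon overlap it was -0.0612, with 6 higher and 7 lower. Called members left out there were Acsl1, Acsl3, Acsl5, Crat, Acadvl and Hadhb (higher) and Etfdh and Acaa1a (lower). Leaving out each library gave 8 to 10 members higher and 8 to 10 lower. With the replicate number as a replicate block 9 members rose and 8 fell, and 6194 genes were called in place of 6594. Same-numbered libraries had correlations of deviations of -0.0339, 0.0469 and -0.0318 across genes, so the numbers were not taken as pairs. Ehhadh, Ppara and Ppargc1a had at most 10 fragments per group and were not tested.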
